A study of Mus musculus with 36 samples.

Results

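Satellite cells labelled as Drp1 knockout were compared 3 days after muscle injury with the same kind of cells from resting muscle, so that the comparison spans the whole course from quiescence to expansion. The members are 7 of the 36 libraries of the study, chosen by their labels: 3 libraries of quiescent cells (QSC) and 4 libraries taken 3 days post injury (3 DPI). All 7 come from C57BL/6 mice aged 3 months with the genotype Pax7-CreER;ROSA26YFP;Drp1fl/fl, here called KO, in which tamoxifen turns on a Cre recombinase driven by the satellite cell gene Pax7. Cre both deletes the floxed part of Drp1 and turns on the yellow fluorescent reporter by which the cells were sorted. The control mice carry the same Cre and reporter without floxed Drp1 and also received tamoxifen. They gave 3 QSC and 3 libraries at 3 DPI, and 4 further KO libraries were taken 1 day after injury (1 DPI). Injury was by cardiotoxin, a venom toxin that destroys muscle fibres and leaves satellite cells able to rebuild them. Resting and injured cells come from different animals. The sort gate differs as well: YFP-positive cells were taken at rest and at 1 DPI, and a fraction labelled CD34-YFP+ at 3 DPI. Gate and time cannot be told apart in this comparison.

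Satellite cells are the stem cells of skeletal muscle. At rest they lie beneath the basement membrane of the fibre, out of the cell cycle and with few mitochondria. After injury they activate, divide as myoblasts, and then either fuse into new fibres or return to rest. Drp1, encoded by Dnm1l, is a dynamin-like GTPase that is recruited from the cytosol to mitochondria, where it assembles into rings and divides them. Mfn1, Mfn2 and Opa1 act in the opposite direction and fuse mitochondrial membranes.

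Expression was deposited as TPM, which give each gene its length-corrected share of the transcripts in a library. Between 12325 and 14543 genes reached 1 TPM in the 7 libraries. Because such shares carry no read number, neither depth nor counting error is known. Values were analysed as log2(TPM + 1) with limma over 18343 genes, and a gene is said to rise or fall where its adjusted p was under 0.05. The p-values measure the spread between libraries, which may be partly technical. Among the KO libraries at 1 DPI, library 2 stood apart, with a summed 16100 TPM of 22 macrophage markers against 1090 TPM in the lowest library of that day. It is no member of the comparison, but it adds to the spread that all groups share, and results on the way through 1 DPI are therefore also given without it. Immune markers were not confined to library 2. Every KO library at 1 DPI summed to at least 1090 TPM of the macrophage markers, against 138 to 216 TPM in QSC. The 9 tested neutrophil markers summed to at least 411 TPM at 1 DPI, against 6.9 to 41.5 TPM in QSC. The part of immune cells in changes to and from 1 DPI was not tested. In bulk RNA, fewer cells of a type and less RNA per cell cannot be told apart.

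Dnm1l (ENSMUSG00000022789) itself did not pass the test between the resting and the injured KO cells. The QSC libraries held 32.7, 34.0 and 43.4 TPM and the 3 DPI libraries 29.2, 22.2, 37.5 and 24.2 TPM. The ranges overlap, and the log2 fold change was -0.38 (SE 0.18, limma adjusted p = 0.0913). In control cells Dnm1l rose over the same course, from 38.2, 39.5 and 30.9 TPM to 69.8, 61.5 and 64.9 TPM (log2 fold change 0.84, limma adjusted p = 0.00128). At rest the KO and control libraries overlap, and at 3 DPI all 4 KO libraries lie below all 3 control libraries. The difference between both changes was -1.22 (SE 0.26, limma adjusted p = 0.249 over all genes). Reads from exons that Cre leaves in place still count toward the gene, and its TPM cannot serve as a check of genotype. Cd34 fell from 62.9 to 167 TPM in QSC to 11.5 to 16.1 TPM at 3 DPI. It belongs to the gate and is no finding.

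Of 18343 genes, 8165 changed between QSC and 3 DPI in KO cells, 4339 upward and 3826 downward. This is 44.5% of all genes tested, 23.7% upward and 20.9% downward, and every count of a gene group below is to be read against these shares. A change of at least 1 on the log2 scale as well was met by 6410 genes, 34.9% of those tested, 18.6% upward and 16.3% downward. The libraries of both groups did not overlap for 8411 genes, 45.9% of those tested. Over all genes the median log2 fold change was -0.03. Median-of-ratios scaling moved that median to -0.19 and the split to 3616 upward and 4917 downward calls, so that 42.4% of calls were upward in place of 53.1%. The direction of a group with a median near 0 can therefore depend on the scaling.

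**Figure D1:**
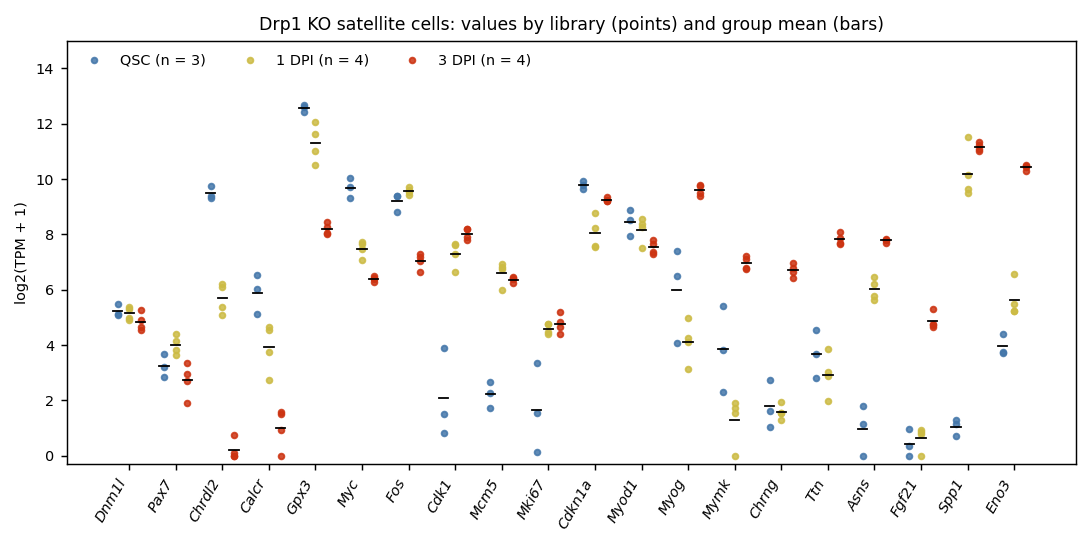
Values of 20 genes on the log2(TPM + 1) scale in every KO library (points) at rest, at 1 DPI and at 3 DPI, with group means (bars). Chrdl2, Calcr and Gpx3 are lower at 3 DPI in every library, Cdk1, Chrng, Asns and Spp1 are higher in every library, and Dnm1l and Pax7 overlap between the groups.

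The largest rise was that of Spp1. This gene, which encodes the secreted phosphoprotein osteopontin, stood at 0.634, 1.21 and 1.43 TPM in QSC against 2065, 2151, 2579 and 2383 TPM at 3 DPI. No library of one group came near the other, and the log2 fold change was 10.12 (SE 0.52, limma adjusted p = 2.73e-11). Eno3, the muscle form of the glycolytic enzyme enolase, held 12.2, 20.01 and 12.6 TPM at rest and 1429, 1248, 1456 and 1388 TPM at 3 DPI (log2 fold change 6.47). Lgals3, the galactose-binding lectin galectin-3, went from 7.13 to 14.1 TPM to 773 to 903 TPM (log2 fold change 6.24). Krt18, an intermediate filament keratin, was listed at 0 in all 3 QSC libraries and held 57.5, 55.6, 59.2 and 61.5 TPM at 3 DPI. Cst6, a secreted cysteine protease inhibitor, held at most 0.0124 TPM at rest and 67.5 to 105 TPM at 3 DPI. Igfbp2, which binds insulin-like growth factors, held at most 0.286 TPM at rest and 30.9 to 67.4 TPM at 3 DPI. Cavin4, a caveolar protein of muscle, held at most 1.09 TPM at rest and 70.6, 71.9, 115 and 72.4 TPM at 3 DPI. Fold changes of genes this close to 0 depend on the added 1 TPM. The remaining genes among the 15 largest rises were Asns, described below, and the division genes Cdk1, Ccnb1, Ube2c, Plk1, Trip13, Hells and the histone gene Hist1h2ap, whose transcript shares 93.8% of its length with Hist1h2ao and whose reads are therefore uncertain.

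The largest fall was that of Chrdl2. This gene, which encodes a secreted antagonist of bone morphogenetic proteins, held 866, 640 and 673 TPM in QSC against 0.661, 0, 0 and 0.0797 TPM at 3 DPI. It was lower in each of the 4 injured libraries (log2 fold change -9.28, SE 0.32, limma adjusted p = 1.97e-13). Gfpt2, an enzyme of the hexosamine pathway, fell from 378 to 1104 TPM to 1.45 to 12.5 TPM (log2 fold change -6.89). S1pr3, a receptor for sphingosine-1-phosphate, fell from 188 to 333 TPM to at most 5.51 TPM, and Thbs2, the matrix protein thrombospondin-2, from 185 to 565 TPM to at most 4.05 TPM. Erfe, the hormone erythroferrone, fell from 386 to 488 TPM to 2.35 to 12.02 TPM. Ntf3, the neurotrophin NT-3, fell from 132 to 319 TPM to at most 3.53 TPM. Arl4d, a small GTPase, fell from 372 to 509 TPM to 5.58 to 7.88 TPM (log2 fold change -5.88). Alpl, an alkaline phosphatase, held 45.9, 57.5 and 103 TPM at rest and was listed at 0 in all 4 libraries at 3 DPI. The same holds for Npy, a neuropeptide, at 94.7, 31.9 and 15.3 TPM in QSC. Neu2, Vtn, Nppc, Ccl19, Dpt and Tnfaip6 complete the 15 largest falls; Ccl19 shares 88.9% of its transcript with another annotated gene.

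**Figure D2:**
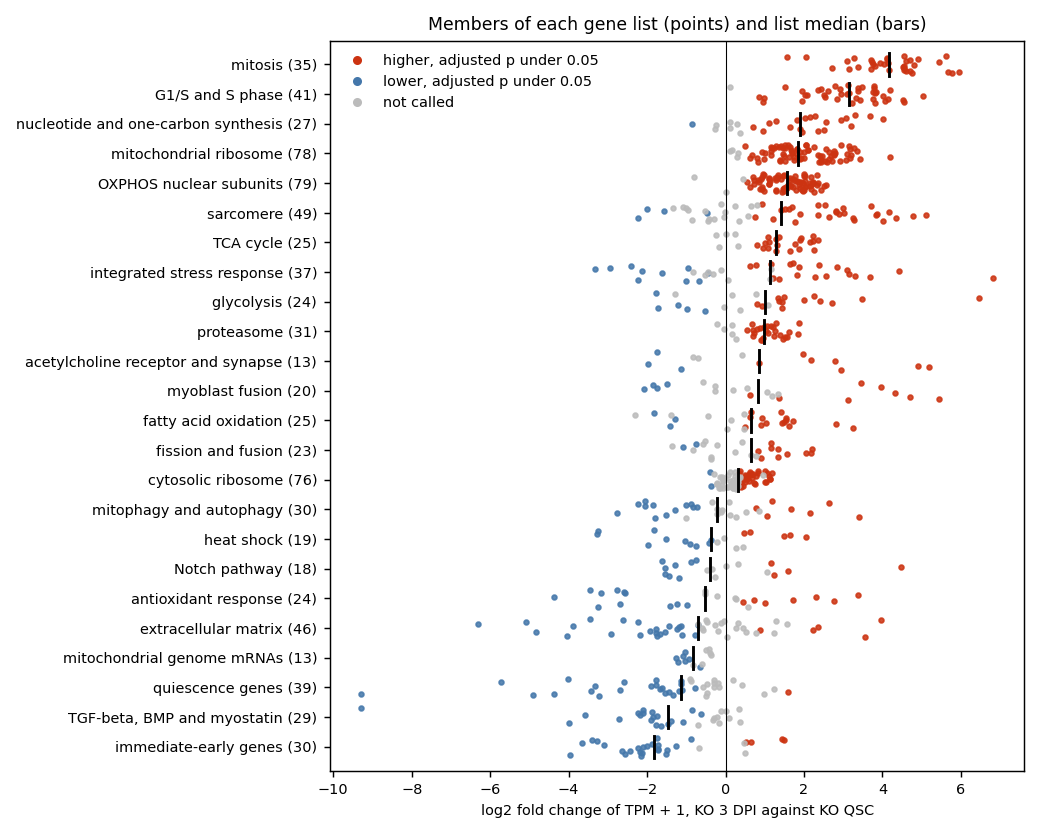
Log2 fold changes of TPM + 1, KO 3 DPI against KO QSC, for the tested members (points) of 24 gene groups, with the number of members and the group median (bars). Members of the mitosis and G1/S groups lie to the right, with medians of 4.17 and 3.15, and immediate-early, TGF-beta and quiescence genes mostly to the left, with medians of -1.81, -1.46 and -1.14.

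Of 39 genes known to be high in resting satellite cells, 23 fell and 1 rose, and the median was -1.14, beside -0.03 for all genes. Calcr, the calcitonin receptor, held 64.2, 91.4 and 33.9 TPM in QSC against 1.98, 0, 1.83 and 0.888 TPM at 3 DPI (log2 fold change -4.89, SE 0.43, limma adjusted p = 2.44e-08). Gpx3, a secreted glutathione peroxidase, held 6226, 6534 and 5439 TPM at rest and 346, 255, 266 and 304 TPM at 3 DPI (log2 fold change -4.37). Both are lower in every injured library. Sdc4, a heparan sulphate proteoglycan and coreceptor for fibroblast growth factors, fell from 3003 to 3889 TPM to 296 to 381 TPM. Pax3, the paralogue of Pax7, fell from 12.3 to 19.8 TPM to at most 2.38 TPM. Spry1, an inhibitor of growth factor signalling, fell by 1.35 on the log2 scale. Pax7, the transcription factor that defines satellite cells, stood at 8.16, 11.7 and 6.14 TPM in QSC against 9.17, 2.74, 5.48 and 6.74 TPM at 3 DPI. Its groups overlap (log2 fold change -0.51, SE 0.34, limma adjusted p = 0.238). The myogenic factor Myf5, which is also in the group, fell from 309 to 711 TPM to 177 to 316 TPM.

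The Notch pathway, which holds satellite cells at rest through contact with neighbouring cells, split between its parts. Of 18 genes tested 4 rose and 8 fell, with a median of -0.40, or -0.63 under median-of-ratios scaling. The receptors Notch1 and Notch3 fell by 1.18 and 1.43 on the log2 scale, the ligand Jag1 by 1.55 and the target Heyl by 1.55. Hes1, another target, held 31.1, 34.1 and 20.2 TPM at rest and 106, 74.3, 79.8 and 86.4 TPM at 3 DPI (log2 fold change 1.59, SE 0.38, limma adjusted p = 0.00207). Hes6, which is known to act against Hes1 and to favour differentiation, went from 1.24, 8.56 and 12.5 TPM to 161, 125, 141 and 164 TPM (log2 fold change 4.48). The ligand Dll1 rose by 1.24 on the log2 scale, and Numb, an inhibitor of the receptors, fell by 1.62.

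Of 29 genes of the TGF-beta and bone morphogenetic protein pathways, which include ligands, receptors, targets and inhibitors such as Chrdl2, 19 fell and 0 rose, with a median of -1.46. Bmp4, a ligand, held 94.4, 143 and 65.6 TPM in QSC against 12.4, 13.2, 2.99 and 4.82 TPM at 3 DPI (log2 fold change -3.57). Tgfbr3, a coreceptor, held 54.3, 73.1 and 37.3 TPM at rest and 4.64, 2.64, 1.16 and 1.99 TPM at 3 DPI (log2 fold change -3.99, SE 0.32, limma adjusted p = 5.11e-09). Every injured library lies below every resting one for both genes. Among 26 growth factors, receptors and feedback genes, 5 rose and 11 fell. Fgfr1, a receptor for fibroblast growth factors, fell from 326 to 334 TPM to 22.7 to 34.4 TPM (log2 fold change -3.46), whereas Met, the receptor for hepatocyte growth factor, rose from 14.8 to 24.4 TPM to 42.0 to 52.3 TPM (log2 fold change 1.24).

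Matrix genes fell more often than they rose, 23 against 5 of 46 tested, with a median of -0.71. Mmp2, a gelatinase, fell from 197 to 245 TPM to 3.34 to 9.47 TPM (log2 fold change -5.07), and Col4a1, a collagen of the basement membrane, from 61.9, 92.9 and 75.8 TPM to 9.76, 0.0223, 5.31 and 5.98 TPM (log2 fold change -4.03). Col1a2, a chain of type I collagen, rose from 3.57 to 6.69 TPM to 52.9 to 87.4 TPM (log2 fold change 3.57), and Timp1, an inhibitor of matrix proteases, from 5.86 to 17.9 TPM to 150 to 195 TPM (log2 fold change 3.96). Of 15 tested markers of fibro-adipogenic progenitors, the mesenchymal cells of muscle that make much of its matrix, 7 fell and 1 rose. Summed over the 16 markers in the table they held 1780 to 2210 TPM at rest and 264 to 433 TPM at 3 DPI. Most of that sum is Dpt, Gsn and Col3a1, and without these 3 genes it was 115 to 161 TPM and 87.5 to 164 TPM. Pdgfra, their defining surface receptor, held 0.508 to 1.22 TPM and 0 to 2.49 TPM. Tcf21 held at most 0.0995 TPM at rest and was at 0 in all 4 libraries at 3 DPI. The part of such cells in the matrix changes was not tested.

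Immediate-early genes, which are transcribed within minutes of a stimulus without new protein, were high in QSC and at 1 DPI and low at 3 DPI. Of 30 tested, 23 fell and 4 rose between QSC and 3 DPI, with a median of -1.81. Fos, a subunit of the transcription factor AP-1, held 666, 672 and 447 TPM at rest, 694 to 832 TPM at 1 DPI, and 156, 145, 99.5 and 130 TPM at 3 DPI. The injured libraries of day 3 lie below all others, and the log2 fold change was -2.15 (SE 0.21, limma adjusted p = 9.78e-08). Fosb, its close relative, fell from 62.3 to 104 TPM to 3.39 to 5.36 TPM. Egr1, a zinc finger factor, fell from 225 to 341 TPM to 35.6 to 68.1 TPM. Myc, a regulator of growth, fell from 630, 832 and 1045 TPM to 85.4, 88.3, 81.7 and 77.5 TPM (log2 fold change -3.28), and Klf4 fell by 3.66 on the log2 scale. Jun, the AP-1 partner of Fos, did not pass, at 68.2 to 126 TPM and 109 to 167 TPM (limma adjusted p = 0.0778).

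The promoter of Fos is shown because its known cyclic AMP response element lies just before the start. The sequence is the RefSeq GRCm38.p6 promoter at chr12:85473640-85473889 on the plus strand, read 5′ to 3′ over the 250 bases before the start, with the core TGACG in capitals.
Fos: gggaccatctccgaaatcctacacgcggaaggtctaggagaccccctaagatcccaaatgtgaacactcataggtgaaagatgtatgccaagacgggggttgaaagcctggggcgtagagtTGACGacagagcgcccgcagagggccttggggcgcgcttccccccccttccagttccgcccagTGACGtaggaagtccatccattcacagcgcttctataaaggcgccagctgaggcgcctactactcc
TGACG, searched on both strands, was present in 12 of 24 immediate-early promoters, in 26.1% of 11190 promoters of tested genes and in 17.9% of all promoters. Such a match is a description of letters and not a site of binding.

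Genes of proliferation rose almost without exception. Of 41 genes of the G1/S transition and DNA replication 40 rose and 0 fell, with a median of 3.15. The exception, Slbp, which binds histone mRNA, stood at 210 to 239 TPM and 220.2 to 282 TPM. Of 35 genes of mitosis all 35 rose, with a median of 4.17. Cdk1, the kinase that drives entry into mitosis, held 0.758, 1.85 and 13.9 TPM in QSC against 221, 295, 238 and 294 TPM at 3 DPI. The groups are far apart, although QSC library 3 is higher than the other QSC libraries (log2 fold change 5.95, SE 0.47, limma adjusted p = 5.06e-09). Ccnb1, its cyclin B1 partner, held 0.734, 2.33 and 11.97 TPM and 186, 216, 265 and 266 TPM (log2 fold change 5.78), but shares 51.9% of its transcript with a pseudogene. Mki67, the Ki-67 proliferation marker, held 0.0870, 1.91 and 9.09 TPM and 24.0, 19.97, 35.8 and 27.3 TPM (log2 fold change 3.10). QSC library 3 was highest and QSC library 1 lowest for each of these 3 genes. Mcm5, a subunit of the replicative helicase, rose by 4.15 and Rrm2, the regulated subunit of ribonucleotide reductase, by 5.04 on the log2 scale.

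The promoters of Cdk1 and Ccnb1 are shown because cell cycle genes are known to share CCAAT boxes and, in many cases, the cell cycle homology region. The sequences are RefSeq GRCm38.p6, for Cdk1 chr10:69352913-69353162 on the minus strand and for Ccnb1 chr13:100786487-100786736 on the minus strand. Each is the 250 bases before the start, read 5′ to 3′ on the strand of the gene, and capitals mark CCAAT (or ATTGG, the same box on the other strand) and TTTGAA.
Cdk1: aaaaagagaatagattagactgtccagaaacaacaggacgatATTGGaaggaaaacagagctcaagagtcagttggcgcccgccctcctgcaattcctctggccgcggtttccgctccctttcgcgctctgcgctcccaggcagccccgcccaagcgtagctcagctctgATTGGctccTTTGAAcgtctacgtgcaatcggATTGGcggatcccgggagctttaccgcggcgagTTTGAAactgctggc
Ccnb1: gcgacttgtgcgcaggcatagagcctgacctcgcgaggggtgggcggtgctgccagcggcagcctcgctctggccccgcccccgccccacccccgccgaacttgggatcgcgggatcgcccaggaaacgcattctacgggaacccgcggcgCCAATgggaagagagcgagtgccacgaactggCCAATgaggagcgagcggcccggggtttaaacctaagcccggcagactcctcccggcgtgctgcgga
CCAAT, searched on both strands, was present in 22 of 29 mitosis promoters (75.9%) and 22 of 33 G1/S promoters (66.7%), in 36.4% of promoters of tested genes and in 34.5% of all promoters. TTTGAA, on both strands, was present in 10 of 29 mitosis promoters (34.5%), in 11% of promoters of tested genes and in 16.3% of all promoters. An E2F site, TTTCCCGC or TTTGGCGC on either strand, was present in 7 of 33 G1/S promoters (21.2%), in 2.5% of promoters of tested genes and in 1.35% of all promoters.

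Cyclins and inhibitors of the G1 phase did not all move with the genes of replication. Of 15 tested 8 rose and 0 fell. Cdk4, the kinase partner of D cyclins, rose from 108 to 177 TPM to 738 to 837 TPM (log2 fold change 2.50), and Ccnd1, cyclin D1, from 72.8 to 136 TPM to 219 to 299 TPM (log2 fold change 1.38). Cdkn2a, which encodes the inhibitors p16 and p19Arf, rose from at most 1.03 TPM to 8.14 to 17.5 TPM (log2 fold change 3.38). Cdkn1a, the inhibitor p21, did not pass, at 966, 879 and 801 TPM in QSC against 651, 610, 591 and 589 TPM at 3 DPI (log2 fold change -0.53, SE 0.21, limma adjusted p = 0.0515). Its groups do not overlap even so. Cdkn1c, the inhibitor p57, stood at 6.07, 23.1 and 78.2 TPM and at 45.0, 60.6, 46.1 and 34.6 TPM, with QSC library 3 above every injured library (limma adjusted p = 0.195).

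Part of the genes of muscle differentiation rose as well. Myog, the factor that commits myoblasts to differentiation, held 16.0, 88.2 and 169.5 TPM in QSC, 7.67 to 30.3 TPM at 1 DPI, and 879, 855, 727 and 664 TPM at 3 DPI. The day 3 libraries lie above all others (log2 fold change from QSC 3.61, SE 0.56, limma adjusted p = 2.83e-05). Myod1, the determination factor that acts before Myog, fell from 367, 247 and 466 TPM to 199, 164, 157 and 220.4 TPM (log2 fold change -0.92, SE 0.23, limma adjusted p = 0.00311). Of 25 myogenic factors and cofactors 11 rose and 6 fell, with a median of 0.24 that became -0.04 under median-of-ratios scaling. Msc, a repressor of myogenic factors also called MyoR, fell from 693 to 1027 TPM to 28.0 to 153 TPM (log2 fold change -3.72). Rbm24, a splicing factor of muscle, rose from 1.03 to 3.71 TPM to 28.4 to 53.9 TPM.

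Of 20 fusion genes tested 8 rose and 4 fell, with a median of 0.84. Mymk, the membrane protein myomaker, held 3.97, 13.0 and 41.3 TPM at rest and 149, 138, 106 and 109 TPM at 3 DPI (log2 fold change 3.13, SE 0.51, limma adjusted p = 4.18e-05). Mymx, the micropeptide myomixer that completes fusion, held 0, 0 and 2.80 TPM at rest and 80.1, 70.7, 57.7 and 63.2 TPM at 3 DPI (log2 fold change 5.45). Every injured library exceeded every resting one for both genes.

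Of 49 sarcomere genes tested 28 rose and 4 fell, with a median of 1.42. Myh3, embryonic myosin heavy chain, held 0, 0.785 and 0.682 TPM in QSC against 29.6, 37.0, 16.8 and 12.8 TPM at 3 DPI (log2 fold change 4.003). Tnnt2 and Tnni1, the cardiac and slow troponins that developing muscle also makes, rose by 4.78 and 5.12 on the log2 scale, and Ttn, the giant spring protein titin, rose from 5.93 to 22.0 TPM to 199.7 to 270.2 TPM (log2 fold change 4.16). Libraries 1 and 2 at 3 DPI were above libraries 3 and 4 for Myh3, Tnni1 and Mylpf, the fast regulatory light chain. Some genes of the mature fibre did not pass or fell. Myh4, the fast adult myosin, stood at 0 to 1.56 TPM and 0 to 0.536 TPM, Ckm, muscle creatine kinase, at 3.07 to 29.1 TPM and 1.39 to 11.9 TPM, and neither passed. Pvalb, the calcium buffer of fast fibres, fell from 1.85, 28.4 and 7.64 TPM to 0, 0, 0 and 1.04 TPM. Markers of the mature fibre summed to 191 to 683 TPM at rest and 2450 to 3030 TPM at 3 DPI, of which Eno3 alone was 1248 to 1456 TPM, and 8 of 19 rose and 3 fell.

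Acetylcholine receptor subunits take nerve input at the synapse. Of 13 receptor and synapse genes 7 rose and 3 fell, with a median of 0.85. Chrng, the gamma subunit of the fetal receptor, held 1.04, 2.07 and 5.70 TPM in QSC against 125, 98.7, 84.1 and 108 TPM at 3 DPI (log2 fold change 4.90, SE 0.34, limma adjusted p = 1.09e-09). Chrnd, the delta subunit, held 0.932 to 1.87 TPM and 73.4 to 106 TPM (log2 fold change 5.18), and Chrna1, the alpha subunit, 20.5 to 53.4 TPM and 279.5 to 322 TPM (log2 fold change 2.96). All 4 injured libraries exceeded all resting ones for these 3 subunits. Chrnb1, the beta subunit of the same receptor, fell instead, from 229.8, 346 and 298 TPM to 109, 163, 119 and 134 TPM (log2 fold change -1.14, SE 0.20, limma adjusted p = 8.53e-05). Musk, the receptor kinase that gathers the receptor at the synapse, also fell, from 279 to 432 TPM to 68.7 to 123 TPM (log2 fold change -1.97).

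The promoters of Myog and Chrng are shown because both genes are known targets of myogenic factors, which bind E-boxes of the form CANNTG. The sequences are RefSeq GRCm38.p6, for Myog chr1:134289754-134290003 on the plus strand and for Chrng chr1:87205561-87205810 on the plus strand, each the 250 bases before the start, read 5′ to 3′, with E-boxes in capitals where they were among those found.
Myog: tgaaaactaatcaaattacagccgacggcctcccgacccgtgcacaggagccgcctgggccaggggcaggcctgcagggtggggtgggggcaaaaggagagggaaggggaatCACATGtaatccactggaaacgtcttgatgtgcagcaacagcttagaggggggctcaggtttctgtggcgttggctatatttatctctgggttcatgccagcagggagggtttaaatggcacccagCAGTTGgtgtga
Chrng: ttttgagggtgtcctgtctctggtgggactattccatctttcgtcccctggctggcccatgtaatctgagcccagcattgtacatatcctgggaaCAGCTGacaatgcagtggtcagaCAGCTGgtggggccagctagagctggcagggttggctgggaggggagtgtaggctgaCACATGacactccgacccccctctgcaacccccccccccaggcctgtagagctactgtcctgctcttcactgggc
CANNTG was present in 33 of 39 sarcomere promoters (84.6%) and 8 of 9 receptor and synapse promoters (88.9%), in 57.8% of promoters of tested genes and in 66.0% of all promoters. Its form CAGCTG, which lies within CANNTG and reads alike on both strands, was present in 15 of 39 (38.5%) and 4 of 9 (44.4%), in 11.9% of promoters of tested genes and in 12.8% of all promoters. Of 12 promoters of fusion genes, 6 held CANNTG, a smaller share than in promoters of tested genes, and 2 held CAGCTG.

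Respiratory chain genes of the nucleus and of the mitochondrial genome went in opposite directions in the Drp1 KO cells. Of 79 nuclear subunits of complexes I to V and cytochrome c, 76 rose and 0 fell, with a median of 1.56. Sdhd, a membrane anchor of complex II, held 94.5, 104 and 138 TPM in QSC against 585, 561, 534 and 611 TPM at 3 DPI (log2 fold change 2.36, SE 0.19, limma adjusted p = 4.65e-09). Ndufs8, an iron-sulphur subunit of complex I, rose from 93.0 to 126 TPM to 310.1 to 334 TPM (log2 fold change 1.64), and Atp5c1, the central stalk of ATP synthase, from 164 to 238 TPM to 821 to 968 TPM (log2 fold change 2.17; 36.1% of its transcript is shared with a pseudogene). By complex, 36 of 37 genes of complex I rose with a median of 1.64, 4 of 4 of complex II with 2.19, 9 of 9 of complex III with 1.88, 12 of 14 of complex IV with 1.18 and 14 of 14 of complex V with 1.48. The 3 that did not pass were Ndufa1 and the muscle isoforms Cox6a2 and Cox8b.

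The 13 mRNAs of the mitochondrial genome had a median of -0.83, and 7 of them fell and 0 rose. mt-Cytb, cytochrome b of complex III, held 6817, 9205 and 7730 TPM in QSC against 3828, 3426, 3801 and 3708 TPM at 3 DPI (log2 fold change -1.09, SE 0.27, limma adjusted p = 0.00271). mt-Co1, the core of complex IV, did not pass, at 2991, 3306 and 3043 TPM and 2468, 2376, 2405 and 2301 TPM, though its groups do not overlap. Genes of the mitochondrial genome together took 8.93%, 11.4% and 9.002% of TPM in QSC and 6.78%, 6.41%, 6.83% and 6.51% at 3 DPI. The means were 9.77% ± 1.4 (SD, n = 3) and 6.63% ± 0.205 (SD, n = 4), with an exact two-sided permutation p of 0.0571, the smallest this design allows. The number of calls is not stable: without QSC library 2 only 2 of the 13 mRNAs fell, with a median of -0.70, without KO 1 DPI library 2 12 fell, and under median-of-ratios scaling 12 fell. Several of these genes, among them mt-Co1, mt-Co3, mt-Nd4, mt-Nd4l and mt-Nd5, have nuclear copies of their sequence, so their reads are uncertain.

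**Figure D3:**
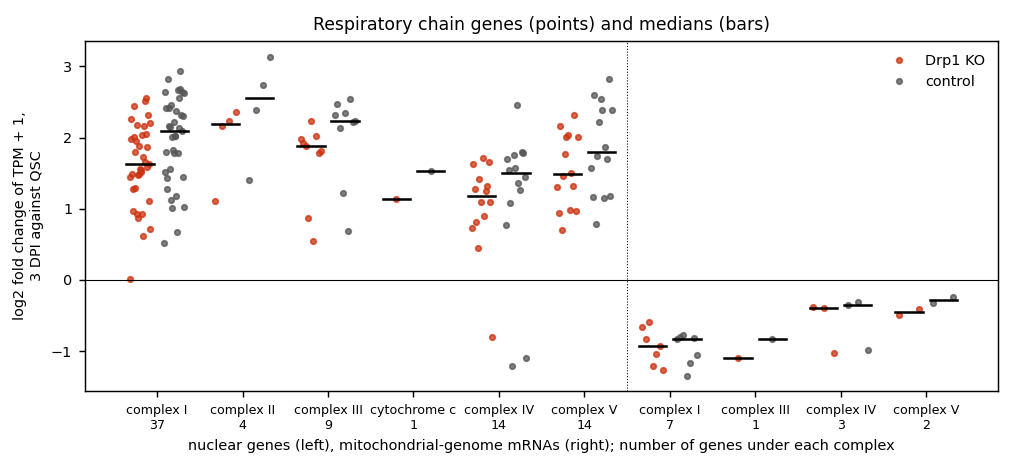
Log2 fold changes of TPM + 1, 3 DPI against QSC, of respiratory chain genes (points) by complex, in KO and control cells, with medians (bars) and the number of genes. Nuclear genes lie above 0 with KO medians from 1.14 to 2.19 except for Cox6a2 and Cox8b in control cells and Cox8b in KO cells, and the 13 mRNAs of the mitochondrial genome lie below 0 in both genotypes.

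The machinery that makes mitochondria rose with the nuclear subunits. Of 78 proteins of the mitochondrial ribosome 74 rose and 0 fell, with a median of 1.86. Mrpl34 went from 6.05, 2.90 and 3.88 TPM to 92.1, 81.5, 98.8 and 98.99 TPM (log2 fold change 4.19), with every injured library far above the resting ones. Of 22 regulators of mitochondrial biogenesis and DNA 13 rose and 1 fell, with a median of 1.11. Ppargc1a, the coactivator PGC-1alpha, rose from 0.137, 2.27 and 0.136 TPM to 4.48, 4.42, 5.79 and 5.18 TPM (log2 fold change 1.88, SE 0.52, limma adjusted p = 0.0059), and Ssbp1, which coats single-stranded mitochondrial DNA, from 37.8 to 46.5 TPM to 189 to 227 TPM. Tfam, which packages that DNA, did not pass, at 36.6 to 59.4 TPM and 50.2 to 78.0 TPM.

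Of 23 fission and fusion genes 10 rose and 2 fell, with a median of 0.64, and under median-of-ratios scaling 9 rose and 6 fell. Opa1, which fuses inner membranes, held 7.82, 10.8 and 11.2 TPM in QSC against 36.5, 48.0, 40.4 and 52.9 TPM at 3 DPI (log2 fold change 2.06, SE 0.23, limma adjusted p = 4.4e-07). Oma1, the protease that cleaves Opa1, rose by 2.18 on the log2 scale and Mfn2, which fuses outer membranes, by 1.57. Mff and Fis1, receptors on the fission side that sit on the outer membrane, rose from 45.2 to 56.1 TPM to 106 to 177 TPM and from 60.9 to 76.9 TPM to 105 to 143 TPM. Mtfp1, a fission protein of the inner membrane, rose from 0.837 to 3.25 TPM to 10.2 to 17.0 TPM. Mfn1 stood at 6.94 to 23.7 TPM and 12.3 to 45.7 TPM and did not pass (limma adjusted p = 0.356). The adaptors Mief1 and Mief2, which also recruit Drp1, did not pass either.

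Mitophagy and autophagy genes were divided, with 7 of 30 up, 12 down and a median of -0.21, or -0.49 under median-of-ratios scaling. Sqstm1, the cargo receptor p62, held 3164, 2059 and 2054 TPM in QSC against 342, 418, 291 and 345 TPM at 3 DPI (log2 fold change -2.78, SE 0.18, limma adjusted p = 3.26e-10). The genes Map1lc3a, Gabarap and Gabarapl1, whose products coat the forming autophagosome, and Lamp2 of the lysosome fell by 2.06, 1.86, 2.23 and 2.06 on the log2 scale. Pink1, a kinase that gathers on damaged mitochondria, did not pass, at 8.46 to 15.2 TPM and 3.22 to 8.05 TPM (limma adjusted p = 0.0506). Bnip3, a mitophagy receptor of the outer membrane, rose from 2.95 to 10.2 TPM to 29.0 to 93.4 TPM (log2 fold change 3.40), but shares 32.1% of its transcript with pseudogenes.

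Of 25 genes of the TCA cycle 20 rose and 0 fell, with a median of 1.29, and of 27 genes of nucleotide and one-carbon synthesis 20 rose and 1 fell, with a median of 1.90. Of 24 glycolytic genes 13 rose and 5 fell. Ldha, lactate dehydrogenase A, rose from 555 to 608 TPM to 1594 to 1782 TPM (log2 fold change 1.50), whereas Hk2, the muscle hexokinase, fell from 55.0 to 120 TPM to 17.7 to 30.2 TPM (log2 fold change -1.73). Pdk4, which blocks entry of pyruvate into the TCA cycle, fell from 75.6 to 106 TPM to 22.1 to 29.4 TPM. Of 25 genes of fatty acid oxidation 15 rose and 3 fell, and of 15 genes of creatine and glycogen metabolism 3 rose and 6 fell. Of 31 proteasome subunits 26 rose and 0 fell, with a median of 0.99.

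The integrated stress response, in which the factor ATF4 raises amino acid synthesis and stress genes and which mitochondrial faults are known to trigger, was mixed. Of 37 genes tested 19 rose and 10 fell, with a median of 1.12. Asns, asparagine synthetase, held 0, 1.197 and 2.44 TPM in QSC, 48.3 to 86.1 TPM at 1 DPI and 204, 224, 229 and 224 TPM at 3 DPI. Each day stands apart from the others, and the log2 fold change from QSC was 6.82 (SE 0.31, limma adjusted p = 5.55e-12). The serine pathway enzymes Phgdh, Psat1 and Psph rose by 3.67, 2.29 and 3.31, and Shmt2 and Mthfd2 of the mitochondrial one-carbon cycle by 2.57 and 1.81 on the log2 scale, of which Phgdh shares 84.6% of its transcript with pseudogenes. Atf4 itself fell from 307, 280.5 and 253 TPM to 172, 185, 169.5 and 174.5 TPM (log2 fold change -0.67, SE 0.13, limma adjusted p = 0.000283). Atf3 and Ppp1r15a, stress genes that are also immediate-early in kind, fell by 2.23 and 2.4 on the log2 scale. Ddit3, the factor CHOP, held 27.7 to 31.1 TPM and 14.3 to 51.4 TPM and did not pass.

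Fgf21, a secreted metabolic hormone, held 0, 0.270 and 0.955 TPM in QSC, at most 0.885 TPM at 1 DPI, and 25.5, 38.4, 26 and 24.1 TPM at 3 DPI. Only the day 3 libraries stood above 1 TPM, and the log2 fold change was 4.42 (SE 0.37, limma adjusted p = 1.06e-08). Control cells went from 0.237, 1.17 and 0.692 TPM to 4.76, 4.60 and 8.45 TPM, a log2 fold change of 2.02. The difference between both changes was 2.398 (SE 0.54) and did not pass over all genes (limma adjusted p = 0.320). Pck2, the mitochondrial form of phosphoenolpyruvate carboxykinase, rose from 2.51, 2.84 and 2.65 TPM to 28.7, 27.8, 26.6 and 39.9 TPM in KO cells. In control cells it went from 2.33, 2.64 and 5.47 TPM to 13.1, 9.55 and 11.8 TPM, and the difference of the changes was 1.56 (SE 0.50, limma adjusted p = 1.0). Slc7a3, which imports arginine and lysine, rose in KO cells from 2.47, 1.26 and 0.186 TPM to 14.1, 22.0, 18.8 and 16.7 TPM and stood at 0.498, 1.12 and 2.04 TPM and at 0.270, 2.18 and 2.91 TPM in control cells. Its difference was 2.92 (SE 0.87, limma adjusted p = 0.886). Asns reached 125, 119 and 120.5 TPM in control cells, below all 4 KO libraries, with a difference of 0.89 (SE 0.45, limma adjusted p = 1.0). Over the 37 genes the median change was 1.12 in KO and 0.26 in control cells. The difference was above 0 for 27 genes and below 0 for 10, with a median of 0.38 beside -0.04 for all genes. Of the 37 genes 0 passed the test. Control values are given above only for genes whose rise was larger in KO cells. The genes share the same libraries and are not independent, so the counts only describe the group.

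The promoters of Asns and Fgf21 are shown because both genes are known targets of ATF4, which binds composite elements of the form TGATGNAA. The sequences are RefSeq GRCm38.p6, for Asns chr6:7693210-7693459 on the minus strand and for Fgf21 chr7:45615491-45615740 on the minus strand, each the 250 bases before the start, read 5′ to 3′ on the strand of the gene, with the element in capitals. In Fgf21 it lies on the other strand.
Asns: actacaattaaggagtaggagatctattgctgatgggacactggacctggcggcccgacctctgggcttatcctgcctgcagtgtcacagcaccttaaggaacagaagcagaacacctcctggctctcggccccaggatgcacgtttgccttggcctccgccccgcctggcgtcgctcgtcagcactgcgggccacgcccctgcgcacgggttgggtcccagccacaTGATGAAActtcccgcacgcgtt
Fgf21: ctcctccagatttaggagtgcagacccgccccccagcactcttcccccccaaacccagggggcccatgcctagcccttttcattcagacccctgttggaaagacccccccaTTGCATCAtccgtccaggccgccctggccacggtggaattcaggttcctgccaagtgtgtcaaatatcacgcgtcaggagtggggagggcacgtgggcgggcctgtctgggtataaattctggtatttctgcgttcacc
TGATGNAA, on both strands, was present in 10 of 32 promoters of the group (31.2%), in 2.04% of promoters of tested genes and in 3.53% of all promoters. The element was added to the search after the values were seen, and part of the group is defined by such targets.

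Of 24 antioxidant genes 7 rose and 11 fell, and of 19 heat shock genes 5 rose and 10 fell. The metallothioneins Mt1 and Mt2, which bind metal ions, fell from 2383 to 4096 TPM to 531 to 594 TPM and from 1761 to 2599 TPM to 354 to 389 TPM. Hmox1, haem oxygenase, fell from 253, 37.6 and 87.9 TPM to 12.9, 10.7, 6.29 and 7.47 TPM (log2 fold change -3.25). Bag3, a chaperone partner that steers proteins into autophagy, fell by 3.27. Hspd1, the chaperonin of the mitochondrial matrix, rose from 332 to 436 TPM to 1020.0 to 1188 TPM (log2 fold change 1.50), but shares 71.1% of its transcript with a pseudogene.

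Imprinted noncoding RNAs changed in opposite directions. Meg3, an imprinted long noncoding RNA, held 2774, 3800 and 3441 TPM in QSC against 73.0, 38.8, 13.7 and 52.7 TPM at 3 DPI (log2 fold change -6.40, SE 0.39, limma adjusted p = 1.82e-10). H19, the noncoding RNA beside Igf2, held 5.18, 6.04 and 3.26 TPM at rest and 72.1, 68.5, 74.0 and 87.9 TPM at 3 DPI (log2 fold change 3.74). The groups do not overlap for either RNA. Igf1, a growth factor for muscle, fell from 19.5, 23.4 and 68.9 TPM to 7.86, 5.08, 4.47 and 7.16 TPM, and its receptor Igf1r fell by 1.22 on the log2 scale.

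Markers of other cell types differed in level and direction. Of 22 macrophage markers 6 rose and 0 fell, and their sum went from 138 to 216 TPM to 998 to 1540 TPM. Lgals3 made up most of it at 3 DPI, and without Lgals3 and Cd74 the sum was 64.0 to 78.0 TPM and 174 to 554 TPM, with libraries 1 and 2 at 3 DPI highest. Lyz2 rose from 13.6 to 23.3 TPM in QSC to 65.1 to 201.5 TPM at 3 DPI, but shares 96.0% of its transcript with Lyz1. Tyrobp rose from 0.719 to 2.01 TPM to 5.63 to 27.4 TPM. The other 16 of the 22 markers did not pass. Adgre1, the macrophage antigen F4/80, is among those 16. It stood at 0, 0.0257 and 0 TPM in QSC against 1.73, 7.37, 0 and 0.581 TPM at 3 DPI. These calls rest on a spread that includes KO 1 DPI library 2. Without that library 9 of the 22 markers rose and 0 fell. C1qa held 0.4476 to 1.079 TPM in QSC and 5.334 to 8.086 TPM at 3 DPI, and C1qb 2.586 to 4.492 TPM and 8.667 to 31.99 TPM. Ctss, Fcer1g and Ms4a7 were also higher in every library at 3 DPI than in any QSC library. The groups overlapped for Cd68, Csf1r, Cd14 and Cd74. Neutrophil markers summed to 6.90 to 42.2 TPM and 15.1 to 44.6 TPM. Endothelial markers summed to 34.5 to 56.1 TPM and 13.2 to 21.6 TPM, and of 15 tested 2 fell and 0 rose. Of that sum Tek was 17.2 to 25.8 TPM and 2.25 to 3.23 TPM, and Eng 7.61 to 12.7 TPM and 0 to 1.39 TPM. Egfl7 was higher at 3 DPI, at 3.33 to 4.80 TPM and 6.97 to 10.2 TPM. In all 4 libraries at 3 DPI 5 of 16 endothelial markers were at 0, but these held at most 1.194 TPM at rest. Pericyte and smooth muscle markers summed to 564 to 631 TPM and 355 to 529 TPM. Most of that sum is Acta2, at 184 to 335 TPM and 149 to 260 TPM, and Des, at 206 to 241 TPM and 191.5 to 247 TPM. Des is also a marker of satellite cells and myoblasts. Over all 7 libraries Pdgfrb held at most 0.261 TPM and Rgs5 2.385 to 9.24 TPM. Schwann cell markers summed to 130 to 178 TPM and 47.6 to 63.2 TPM, with Sox10 at 0 in all 7 libraries. Pmp22 alone was 115 to 161 TPM and 33.1 to 48.5 TPM of that sum. Erythroid markers summed to 32.7 to 126 TPM and 88.9 to 115 TPM. Lymphocyte markers summed to 8.16 to 13.8 TPM and 1.12 to 5.07 TPM, with 9 of 14 at 0 throughout 3 DPI. The part of these cells in the changes of Spp1 and Lgals3, which macrophages also make, was not tested.

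The course had a first step, QSC to 1 DPI, and a second step, 1 DPI to 3 DPI, and both share libraries with the net change. In the first step 5897 genes changed (32.1%), 3959 upward (21.6%) and 1938 downward (10.6%). Among the rises were 21 of 22 macrophage markers and 5 of 9 neutrophil markers, or 18 and 5 without KO 1 DPI library 2. In the second step 3464 changed (18.9%), 1247 upward (6.8%) and 2217 downward (12.1%). Of the 4339 genes that rose over the whole course, 2553 (58.8%) passed in the same direction in the first step only, 502 (11.6%) in the second only, 554 (12.8%) in both and 730 (16.8%) in neither. Of the 3826 that fell, the counts were 1175 (30.7%), 931 (24.3%), 494 (12.9%) and 1226 (32%). Without KO 1 DPI library 2 the counts of rising genes were 2784 (62.4%), 423 (9.48%), 431 (9.66%) and 823 (18.4%), and those of falling genes 1123 (28.4%), 937 (23.7%), 442 (11.2%) and 1459 (36.8%). Replication genes rose in the first step, 41 of 41 with a median of 3.30, and in the second step 6 rose and 1 fell. Mitosis genes rose in both, 34 and 21 of 35. Nuclear respiratory genes rose in both as well, 60 and 70 of 79. Sarcomere genes rose in the second step, 29 of 49 with a median of 1.79, after 3 rose and 10 fell in the first. Immediate-early genes fell in the second step, 23 of 30, after 7 rose and 11 fell in the first.

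Without KO 1 DPI library 2 the counts over all genes were 3967 upward and 1758 downward in the first step and 1002 and 2042 in the second. Among the gene groups, replication genes then had 3 up and 7 down in the second step, the mitochondrial ribosome 7 up in place of 17, and the mRNAs of the mitochondrial genome 9 down in place of 1 in the first step and 0 in place of 1 in the second. Mitosis genes rose as 33 and then 18 of 35, nuclear respiratory genes as 67 and then 63 of 79, sarcomere genes as 2 (with 10 down) and then 28 of 49, and immediate-early genes fell as 10 (with 6 up) and then 22 of 30. The net change itself was 4461 upward and 3961 downward.

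**Figure D4:**
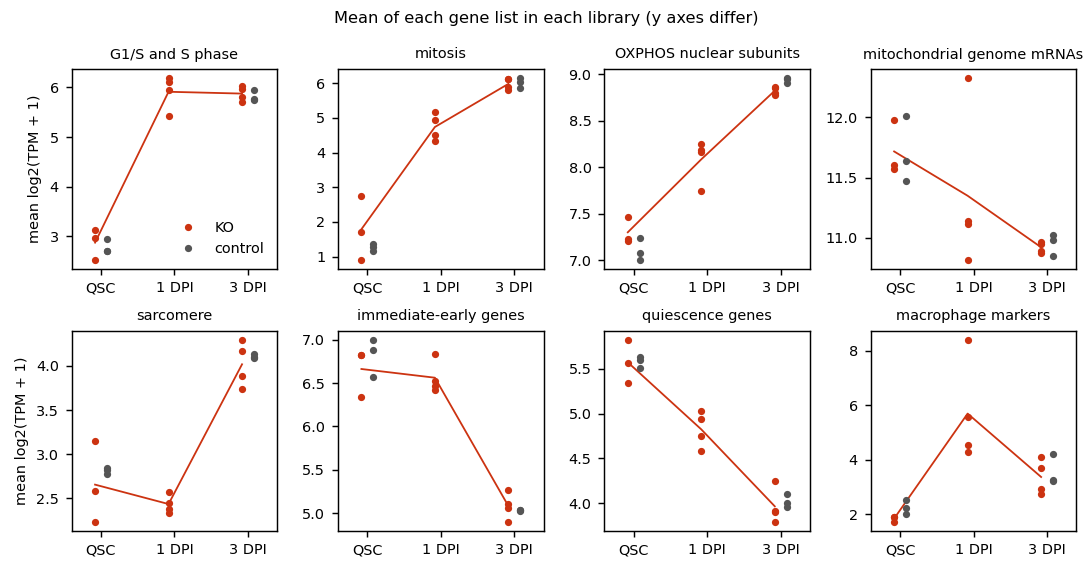
Mean log2(TPM + 1) of 8 gene groups in each library: KO cells at rest, at 1 DPI and at 3 DPI (red, with a line through the means) and control cells at rest and at 3 DPI (grey). Replication genes are high by 1 DPI, sarcomere genes only at 3 DPI, and 1 KO library at 1 DPI stands above the rest for macrophage markers and mitochondrial-genome mRNAs.

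Control cells changed along nearly the same lines. In them 7937 genes changed (43.3%), 4311 upward (23.5%) and 3626 downward (19.8%). Between both genotypes 6605 genes changed in common, 80.9% of those in KO and 83.2% of those in control cells, and 6601 of these went the same way. Across the 18343 genes the fold changes of both courses, which share no library, had a Pearson r of 0.878 and a Spearman rho of 0.867. Genes are not independent, and both courses share the gate and the times, so these values only describe the similarity. Tested directly, the change from QSC to 3 DPI differed between the genotypes for 5 genes (0.0273% of those tested), and 803 genes (4.38%) had an unadjusted p under 0.05. No member of any of the 48 gene lists was among the 5.

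**Figure D5:**
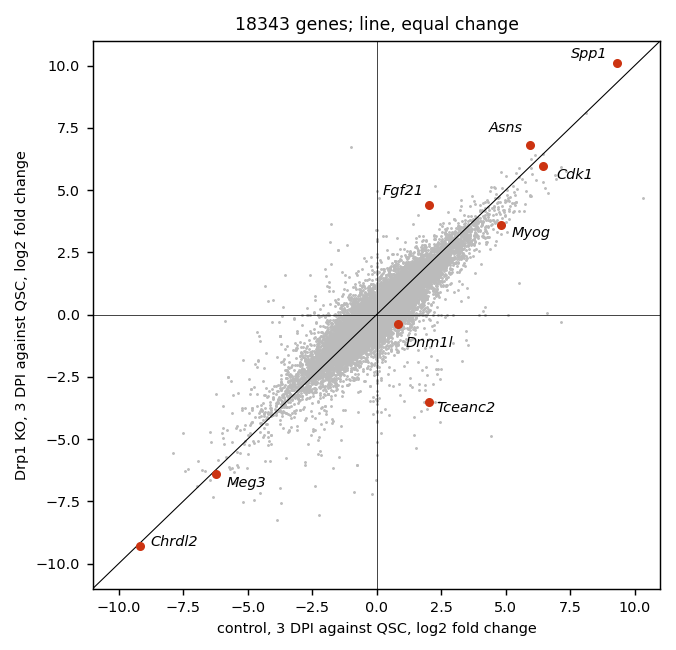
Log2 fold change from QSC to 3 DPI in KO cells (y) against that in control cells (x) for 18343 genes; the line marks equal change. Most genes lie near the line, Tceanc2 and Dnm1l lie below it, and Fgf21 lies above it.

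Tceanc2, a gene related to transcription elongation factors, was the named gene among the 5. It held 128, 206 and 303 TPM in KO QSC and 16.5, 19.4, 18.2 and 13.8 TPM at 3 DPI. In control cells it held 7.40, 6.12 and 5.83 TPM at rest and 37.9, 38.8 and 16.3 TPM at 3 DPI. The groups differ mainly at rest, and the difference of the changes was -5.50 (SE 0.87, limma adjusted p = 0.0194). It was uneven within KO cells at 1 DPI, at 18.7, 141, 11.3 and 102 TPM. Its call was lost when KO QSC library 2 or 3, any 1 control QSC library, or control 3 DPI library 1 or 2 was left out, with a difference from -5.59 to -5.21 in these fits. The other 4 genes, named here after their values were seen, were the small RNA gene Gm24682 and the pseudogenes Gm5874, Gm14893 and Gm2427. Gm5874 and Gm14893 had a log2 fold change of 0 in KO cells, with differences between genotypes of -3.958 and 1.862. For Gm24682 and Gm2427 the KO changes, -4.265 and -2.736, equal the differences between genotypes. Each of these 4 calls thus rests on a change in only 1 genotype. Gm5874 shares its whole sequence with Tsen15 and Gm2427 with Sp140, so their reads are uncertain.

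Nuclear respiratory genes had a median change of 1.56 in KO and 1.86 in control cells, and the difference was below 0 for 77 of 79 genes, with a median of -0.34 beside -0.04 for all genes. None of the 79 passed the test. Genes of a group are measured in the same libraries and are not independent, so sign counts here only describe the groups. The smallest p among them was that of Ndufs8, with a difference of -0.67 (SE 0.17, limma adjusted p = 0.567), with control cells going from a mean of 71.9 to 358 TPM and KO cells from 104 to 323 TPM. By complex the medians in control cells were 2.09, 2.56, 2.23, 1.50 and 1.8 for complexes I to V. For the mRNAs of the mitochondrial genome the control median was -0.82, with 6 of 13 down. Mitosis genes had a control median of 4.75, and the difference was below 0 for 29 of 35 with a median of -0.51, of which none passed. Among the resting KO libraries, library 3 held the most Cdk1, Ccnb1, Mki67, Myog and Mymk and library 1 the least, which enters each of these differences.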

How the data were processed

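Per the labels, RNA of sorted cells was sequenced, and the table used here holds TPM of 55471 genes in 21 libraries in 6 groups (control and KO at rest, 1 DPI and 3 DPI). The TPM values were deposited by the authors. Per the submitters' processing notes the tools include RSEM 1.3.1, cutadapt 1.7.1 and CASAVA 1.8.2, with the genome build GRCm38; no aligner is named in what was used here. The labels name both a low-input and a directional library protocol, so the use of strand is unclear, and overlapping or antisense genes cannot be told apart. The low values of each library, the only ones checked for this, lie on whole multiples of its smallest step (within 0.001 of a step). They look rounded and rescaled, and depth is unknown. Symbols were matched for 55230 of 55471 IDs.

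From these values log2(TPM + 1) was taken for the 18343 genes that reached 1 TPM in 3 or more libraries. limma 3.58.1 in R 4.3.3 was fitted to all 21 libraries (group means, trended empirical Bayes), two-sided, with Benjamini-Hochberg adjustment over all genes kept and a threshold of 0.05. Which samples form a group came from the labels. The members and the 48 gene lists were chosen with earlier results of these data known. Genes were named by a rule: Dnm1l and 6 markers (Pax7, Myod1, Myog, Mki67, Cdkn1a, Cd34), the 15 largest changes in each direction among called protein-coding genes whose higher group averaged 20 TPM or more and whose libraries did not overlap, up to 8 members of each list and members that define it, called protein-coding genes of the difference between genotypes, and up to 6 genes each that peak or dip at 1 DPI. Sequence shared between genes was found with BLAST 2.17.0 (matches of at least 100 bases and 95% identity over at least 30% of a transcript). Promoters are RefSeq, GRCm38.p6; 11190 tested genes had one.

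On simulated data of the same size, 200 of 18343 genes were changed, drawn from the more highly expressed ones. Of changes of 1 and 2 on the log2 scale 40% and 91% were recovered, and 14 of 145 calls were false. Far fewer genes were changed there than the 44.5% called in KO cells, so these shares do not carry over to that comparison. Replicate numbers did not pair the libraries, with correlations of 0, -0.011 and 0.019 for the KO numbers shared between rest and 3 DPI. Alternatives changed the pseudocount, the filter, the scaling, the genes and groups fitted, the weights, the prior and the replicate block, and left out each resting and 3 DPI library in turn. The fit without KO 1 DPI library 2 and the ATF4 element were added after seeing the data. Calculations used Python 3.11.15 with pandas 2.3.3 and scipy 1.17.1.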

Additional observations from a re-analysis of the deposited data

Results flagged for a closer look

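Among the 4 KO libraries at 3 DPI, 12 of 228 named genes had 1 library far from the other 3; the gap was above Dixon's critical value for 4 samples. Chance flags about 1 in 20 groups. Library 3 was highest for Trip13 at 104 TPM, for Cavin4 at 115 TPM and for S100a9 at 11 TPM. Library 1 was highest for Chrdl2 at 0.661 TPM, for Neu2 at 0.0684 TPM and for Myh4 at 0.536 TPM. Library 2 was highest for Fgf21 at 38.4 TPM, for Psat1 at 308 TPM and for Col15a1 at 0.846 TPM, and lowest for Ak1 at 32.4 TPM. Library 4 was highest for Pck2 at 39.9 TPM and for Pvalb at 1.04 TPM.

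The change from QSC to 3 DPI differed between KO and control cells for Tceanc2, by -5.50 on the log2 scale, in the test of that difference across all genes (limma).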

How the results depend on the processing

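Between QSC and 3 DPI in KO cells, the count of changed genes lay between 6848 and 8757 over 25 alternatives, which did not all test the same genes. The count of 6848 is from the fit of protein-coding nuclear genes only. For comparison, the main fit called 6646 of 13344 protein-coding genes. With a pseudocount of 5 the count with a change of at least 1 on the log2 scale was 4040 in place of 6410. The difference between genotypes, called for 5 genes, was called for 3 with a pseudocount of 0.1, for 12 with no filter on low values and for 3 with a filter at 5 TPM. It was called for 8 with only the groups of the contrast and for 11 with array weights, and leaving out 1 library gave 3 to 8. Among protein-coding nuclear genes it was called for 1. That fit leaves out 4 of the 5 genes, which are pseudogenes or a small RNA, and Tceanc2 kept its call. The cause of the other shifts was not tested. Of 228 named genes, 191 were called, 180 of them in each alternative that gave a value (19 genes lack a value in 1 or 2 of the 25), and 11 were lost in 1 or more, among them 6 genes of the mitochondrial genome with Dll1, Gdf15, Chac1, Lyz2 and Tyrobp. None of the named genes reversed. The number of 48 list medians above 0 was 26 and lay between 23 and 27. The replicate block, whose numbers did not pair the libraries, gave 7931 changed genes in KO cells, 4171 upward and 3760 downward, 7809 in control cells and 6 for the difference between genotypes. Under median-of-ratios scaling the cytosolic ribosome had 17 up and 14 down of 76 in place of 34 and 2. TPM keep no depth, so counting error could not be set apart from the spread between libraries.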

Other observations

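Immune signalling genes followed more than 1 direction in KO cells. Of 23 chemokines and cytokines 4 rose and 10 fell between QSC and 3 DPI, with a median of -0.52. Cxcl1, a chemokine that attracts neutrophils, went from 761, 1050 and 1246 TPM at rest to 189, 282, 166 and 154 TPM at 3 DPI (log2 fold change -2.37, SE 0.31, limma adjusted p = 3.48e-06), and every injured library lies below every resting one. Il33, an alarm cytokine of the interleukin-1 family, held 3.79, 4.32 and 2.70 TPM at rest and 70.0, 86.9, 101 and 47.6 TPM at 3 DPI (log2 fold change 4.03). H2-K1, a class I antigen-presenting molecule, fell from 700 to 753 TPM to 62.6 to 112 TPM (log2 fold change -3.21). Fas, a death receptor and p53 target, fell from 127, 126 and 96.1 TPM to 3.92, 12.7, 7.71 and 6.23 TPM (log2 fold change -3.85). Of 33 interferon and antigen presentation genes 5 rose and 10 fell.

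Growth genes were divided. Of 34 genes of ribosome biogenesis 7 rose and 15 fell, with a median of -0.30, or -0.58 under median-of-ratios scaling. Of 22 genes of cholesterol synthesis 10 rose and 5 fell, with a median of 0.34, and the balance turned with the scaling: 7 rose and 9 fell, with a median of 0.07, under median-of-ratios scaling, and 8 rose and 8 fell under quantile normalization.

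Of the protein-coding genes that averaged 20 TPM or more at some time, 190 rose to 1 DPI and fell after it and 53 did the reverse, with no net call; without KO 1 DPI library 2 the counts were 111 and 43. A missing net call does not show that a gene was back at its resting level. S100a8, a calcium-binding protein of neutrophils, had means of 8.41 TPM in QSC, 1025 TPM at 1 DPI and 11.7 TPM at 3 DPI, with KO 1 DPI library 2 at 2864 TPM and the other 3 libraries of that day at 234 to 673 TPM. Its mean at 1 DPI without library 2 was 412 TPM. Arl6ip5, a membrane protein of the endoplasmic reticulum, had means of 1078 TPM, 303 TPM (328 TPM without library 2) and 826 TPM. Tnnt1, slow skeletal troponin T, had means of 33.6 TPM, 5.71 TPM (6.08 TPM without library 2) and 49.0 TPM.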
